A study of Mus musculus with 8 samples.

Results

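The Groucho TLE proteins are co-repressors. They bind no DNA themselves and are brought to genes by transcription factors, RUNX proteins among them, and they repress through histone deacetylases and by bridging nucleosomes. The members examined were every probe set that the array's annotation assigns to Tle1, Tle2, Tle3, Tle4 or Tle6 alone, which gave 11 of the 45037 probe sets tested and 5 of the 18193 genes with a probe set of their own. Tle1 had 2 probe sets, Tle2 had 1, Tle3 had 4, Tle4 had 3 and Tle6 had 1, and no probe set shared between genes named a member. The rule uses no measured value.

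Gene expression was measured on 8 Affymetrix arrays of RNA from sorted mouse skin cells, 2 arrays in each of 4 groups. The groups were hair germ cells of Runx1 iTG mice, hair germ cells of WT mice, bulge cells of Runx1 iTG mice and bulge cells of WT mice. Runx1 iTG is the labels' name for a Runx1 transgene, with its promoter and the way doxycycline acts on it not given in the sources used here. All mice, WT included, ate food with 1 g doxycycline per kg for 1 day, given, by the treatment record, to shut off H2BGFP. Skin was in telogen, when follicles rest, on postnatal day 20, and on day 21 for replicate 2 of the Runx1 iTG bulge and hair germ groups. Cells positive for a keratin 15-GFP reporter and α6-integrin were sorted, with CD34-positive cells taken as bulge, the stem cell niche of the resting follicle, and CD34-negative cells as hair germ, the cluster below it from which a new hair starts. The study asked what raised Runx1 does in these cells.

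TLE proteins carry a WD-repeat domain that recognises short peptides, such as those at the ends of RUNX and HES proteins. TCF and LEF proteins, the nuclear arm of WNT signalling, recruit TLE while β-catenin is absent and give it up when β-catenin enters the nucleus. TLE1 to TLE4 are full-length co-repressors with closely similar domains, while mouse TLE6 is a divergent member known best from the subcortical maternal complex of the egg. WNT and RUNX1 activity both accompany the entry of resting follicles into growth.

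The genes lie at chr4:72109945-72200989 (Tle1), chr10:81574739-81592581 (Tle2), chr9:61372326-61418497 (Tle3), chr19:14448072-14598183 (Tle4) and chr10:81590904-81601185 (Tle6) in GRCm38.p6. The ends of Tle2 and Tle6, which run on opposite strands, overlap by 1678 bases. Whether either gene's probes fall in the overlap is not known here, so these genes' values are uncertain to that extent. RefSeq promoter windows, from 250 bases before to 50 after a start site, were found for all 5 genes, 7 windows in all because Tle4 and Tle6 have 2 each. They were read because Tle4, Tle2 and Tle6 varied together over the arrays. The RUNX motif, searched as TGTGGT or TGCGGT on both strands, was in 0 of the 7 windows, against 22.4% of all 32851 windows of the same length. The TCF/LEF motif, searched as CTTTGAA or CTTTGAT on both strands, was also in 0 of 7, against 8.65% of all windows. These counts say only that those letters are not in these windows. The E-box CACGTG was in 3 of 7, in windows of Tle3, Tle4 and Tle6, against 7.15% of all windows. In all 3 an E-box lay within a run of 10 identical bases that 0.119% of all windows hold, a run picked after the sequences had been read. The Tle6 window holds another CACGTG outside the run. The 3 stretches follow, 5′ to 3′ on the gene's strand with the run in capitals. They begin 8 bases ahead of the run. Its first base lies at -70 from the window's own start site in Tle3, at -212 in Tle4 and at -185 in Tle6. In Tle3 and Tle6 that start site lies inside the gene span given above, and the Tle6 run itself lies inside the span of Tle6.
Tle3 chr9:61372288-61372313 (+): cccgtggcCCCACGTGGGagcctcgc
Tle4 chr19:14598378-14598403 (-): gccctgtcCCCACGTGGGcctagcct
Tle6 chr10:81601068-81601093 (-): gctcgcagCCCACGTGGGctcgccgc
The whole upstream window of Tle4 is shown because Tle4 was the member whose signal varied most between groups, with the same run in capitals.
Tle4 chr19:14598134-14598433 (-): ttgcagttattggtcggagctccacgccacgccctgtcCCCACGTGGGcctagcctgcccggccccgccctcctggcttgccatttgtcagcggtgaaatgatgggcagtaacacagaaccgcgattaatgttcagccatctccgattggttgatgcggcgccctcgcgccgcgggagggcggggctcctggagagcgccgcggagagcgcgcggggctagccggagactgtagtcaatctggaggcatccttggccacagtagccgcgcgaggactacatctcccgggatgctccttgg
Between brightest probe sets over 8 arrays, Tle4 correlated at r = -0.52 with Tle3 and 0.751 with Tle6, which hold the run. With Tle2 and Tle1, whose windows lack it, r was 0.907 and 0.304. Whether the run has a part in these patterns was not tested.

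Signals below are the authors' intensities after every array was brought to one 75th percentile, so they compare arrays for a probe set and not one probe set with another. The median deposited intensity lay between 101.7 and 162 on the 8 arrays, and 69.0% to 77.0% of probe sets per array exceeded background, set at 31.0 from 27 bacterial control probe sets. All 11 Tle probe sets exceeded it on all 8 arrays. Runx1, by its brightest probe set, read 12072 and 12845 in Runx1 iTG hair germ against 494 and 488 in WT hair germ, and 19404 and 13659 in Runx1 iTG bulge against 656 and 901 in WT bulge, the direction the genotype labels name. One more of its 6 probe sets passed in hair germ (log2 difference 2.35, adjusted p = 0.042), and the other 4 lay lower in Runx1 iTG hair germ without passing (-2.77 to -1.43). Sex-linked transcripts separated the replicates of every group: Xist read 30.2 to 72.3 on the 4 arrays of replicate 1 and 9944 to 11070 on those of replicate 2, so the spread within each group includes sex. Marker counts that follow set hair germ against bulge of the same genotype, at a limma adjusted p under 0.05. Of all probe sets, 6.98% passed in Runx1 iTG and 4.61% in WT. Of 7 bulge markers, 7 lay lower in hair germ of each genotype, and 6 passed in Runx1 iTG and 7 in WT. Cd34, the sort marker, had a mean below background in both hair germ groups (3.37 in Runx1 iTG, and 28.4 in WT, where 1 array read 53.0). Of 7 hair germ markers, 6 lay lower in Runx1 iTG hair germ and 7 in WT hair germ, against the label. In each genotype 3 passed as lower and 0 as higher. Of 6 measured sebaceous gland markers, 6 lay higher in hair germ of each genotype, and 6 passed in Runx1 iTG and 5 in WT. They were led by Pparg, a lipid regulator, at 4113 in Runx1 iTG hair germ against 31.2 in Runx1 iTG bulge, and 1565 in WT hair germ against 6.26 in WT bulge. Of these lists, Lef1, Hes1, Msx2, Tcf7l1 and Runx1 are also TLE partners described further on. The CD34-negative samples are called hair germ here as the labels do. A lower signal from sorted cells can mean fewer cells of a type or less RNA per cell, which these arrays cannot tell apart.

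**Figure D1:**
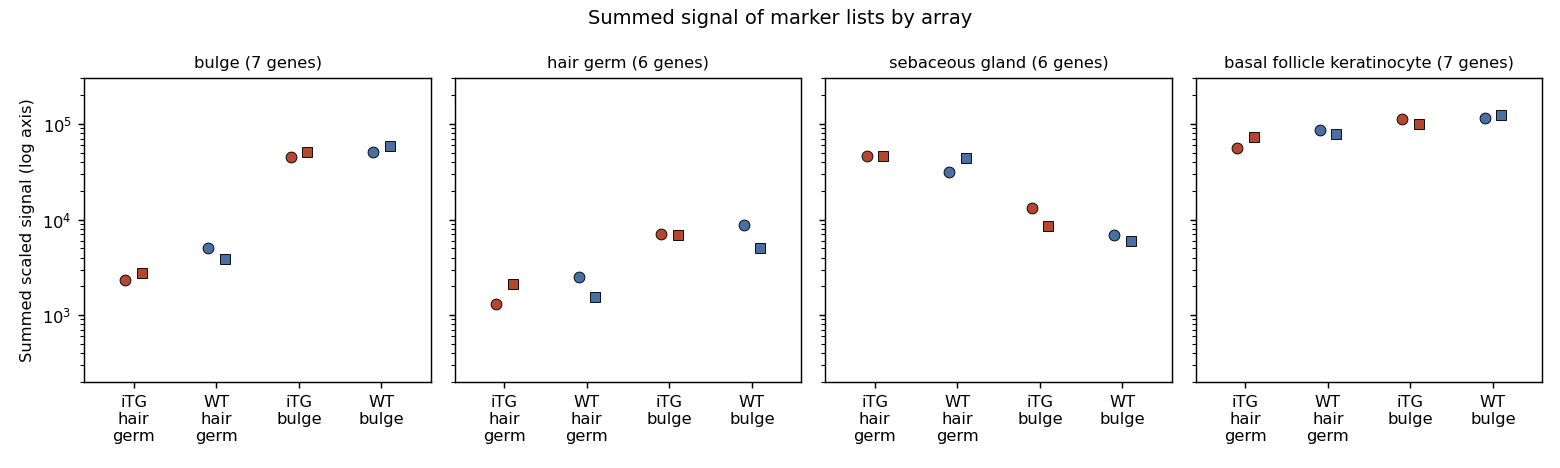
Summed scaled signal (log axis) of the marker genes of 4 cell types on each array, with circles for replicate 1 and squares for replicate 2. The hair germ panel leaves out Runx1. Bulge markers summed to 2354 to 2752 in Runx1 iTG hair germ and 3883 to 5019 in WT hair germ, and sebaceous markers to 46137 to 46560 and 31192 to 43819 in these groups.

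Tle4, a full-length member, was lowest in Runx1 iTG hair germ by all 3 of its probe sets and highest in WT bulge. Its brightest probe set, 1450853_at, read 229 and 282 in Runx1 iTG hair germ, 1097 and 1184 in WT hair germ, 1217 and 1064 in Runx1 iTG bulge, and 1803 and 1658 in WT bulge. The group means were 255 ± 37.6, 1140.3 ± 61.4, 1141 ± 108 and 1731 ± 102 in that order (SD, n = 2 each). WT hair germ and Runx1 iTG bulge interleaved, and the groups above and below them stood clear. For 1425650_at the signals were 153 and 196 in Runx1 iTG hair germ, 682 and 517 in WT hair germ, 732 and 804 in Runx1 iTG bulge, and 1646 and 1350 in WT bulge. For 1430384_at they were 100 and 92.7 in Runx1 iTG hair germ, 610 and 326 in WT hair germ, 446 and 313 in Runx1 iTG bulge, and 815 and 919 in WT bulge. No Runx1 iTG array overlapped a WT array of the same population for any Tle4 probe set. In either direction, genotypes did not overlap for 33.6% of all probe sets in bulge and 35.1% in hair germ. The highest group mean was 6.78 to 8.98 times the lowest, and the 3 probe sets followed each other over the 8 arrays with r of 0.952 to 0.965.

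**Figure D2:**
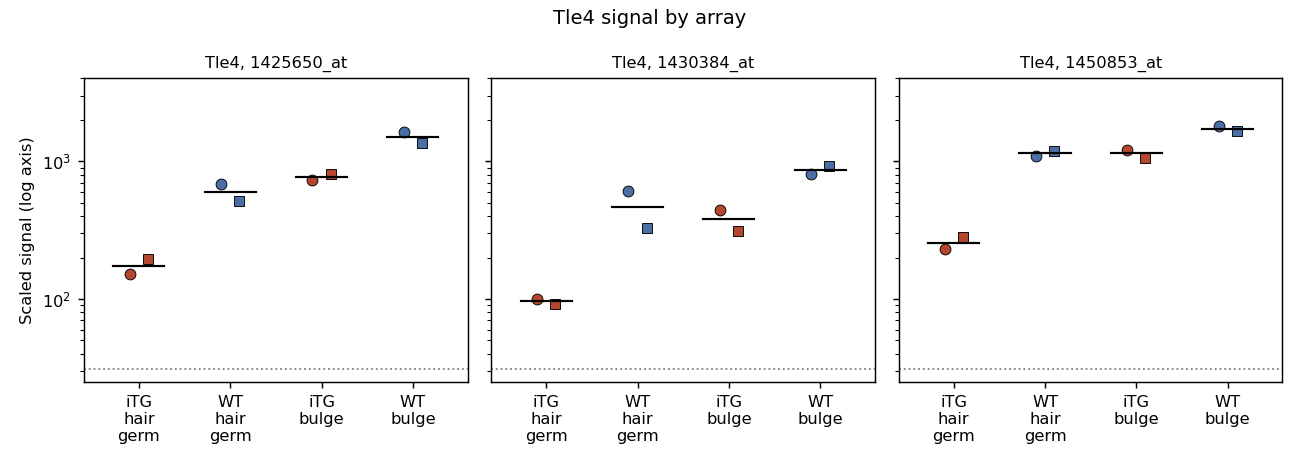
Scaled signal (log axis) of the 3 Tle4 probe sets on each array, with circles for replicate 1, squares for replicate 2, bars for group means and a dotted line for background at 31.0. The 2 Runx1 iTG hair germ arrays lie below every other array in each panel, between 92.7 and 282.

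In hair germ, Tle4 was 4.49-fold lower in Runx1 iTG than in WT cells by 1450853_at, a log2 difference of -2.17 (SE 0.25, 95% confidence interval -2.72 to -1.62) that narrowly missed the threshold of 0.05 in limma after Benjamini-Hochberg adjustment over all probe sets (adjusted p = 0.0508). The other Tle4 probe sets differed in the same direction, by -2.21 (SE 0.38, 4.62-fold lower, adjusted p = 0.224) for 1430384_at and -1.78 (SE 0.29, 3.44-fold lower, adjusted p = 0.19) for 1425650_at. In this comparison 0 of 11 Tle probe sets passed, and 4 had an unadjusted p under 0.05, all lower in Runx1 iTG. Of all probe sets tested 0.00888% passed, 4 in number, with 2832 at an unadjusted p under 0.05. With 1 probe set per gene, the brightest, the adjusted p of Tle4 over 18193 genes was 0.0395, and it was 0.0197 with probe sets below background in all groups left out, so the call depends on which probe sets are tested. Leaving out any one array gave an adjusted p of 0.136 to 0.449, with the difference between -2.32 and -2.02. Bulge markers also lay lower in Runx1 iTG hair germ, 6 of 7 of them, none past the threshold, and their summed signal was 2354 to 2752 in Runx1 iTG against 3883 to 5019 in WT. Basal keratinocyte markers summed to 56456 to 72327 in Runx1 iTG and 78526 to 85784 in WT hair germ, and markers of differentiated epidermis to 26703 to 36890 and 43329 to 46908. Sebaceous markers summed to 46137 to 46560 in Runx1 iTG and 31192 to 43819 in WT hair germ. Immune markers summed to 510 to 640 in Runx1 iTG and 814 to 951 in WT hair germ. For melanocyte, fibroblast and endothelial markers the groups were 427 to 1082 against 864 to 1006, 436 to 811 against 308 to 451, and 116 to 191 against 106 to 153. The part of these markers in the Tle4 difference was not tested.

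In bulge the Tle4 differences were smaller and did not pass. They were -0.96 (SE 0.29, 1.94-fold lower, adjusted p = 0.768) by 1425650_at, -1.21 (SE 0.38, 2.32-fold lower, adjusted p = 0.779) by 1430384_at and -0.60 (SE 0.25, 1.52-fold lower, adjusted p = 0.843) by 1450853_at. Their unadjusted limma p-values were 0.00806, 0.0103 and 0.0346. Of the 11 Tle probe sets 0 passed in bulge and 5 had an unadjusted p under 0.05, 2 higher and 3 lower, while 0.00444% of all probe sets passed (2 in all, with 2555 at an unadjusted p under 0.05). Fibroblast markers summed to 9157 to 9290 in Runx1 iTG bulge and 4835 to 5747 in WT bulge, and sebaceous markers to 8539 to 13059 in Runx1 iTG bulge and 6033 to 6883 in WT bulge. Of the 7 fibroblast markers, 7 lay higher in Runx1 iTG bulge, none past the threshold. Lum and Pdgfra among them had means below background in both bulge groups. Col1a1, which held most of their sum, averaged 7039 in Runx1 iTG bulge and 3917 in WT bulge. Basal keratinocyte markers summed to 100874 to 114205 in Runx1 iTG bulge and 115864 to 124033 in WT bulge, and bulge markers to 45401 to 51032 and 50930 to 59438. For markers of differentiated epidermis, melanocytes, immune cells and endothelium the groups were 63138 to 89743 against 83654 to 91142, 2083 to 4485 against 2193 to 3599, 553 to 1027 against 672 to 1420, and 247 to 357 against 260 to 373. What these contribute was not tested.

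Averaged over both populations, Tle4 fell 2.61-fold in Runx1 iTG by 1450853_at (log2 -1.38, SE 0.17, 95% confidence interval -1.77 to -0.996, limma adjusted p = 0.0398). The other Tle4 probe sets gave -1.37 (adjusted p = 0.0774) for 1425650_at and -1.71 (adjusted p = 0.104) for 1430384_at. This was 1 of 11 Tle probe sets called, in a comparison that called 0.0377% of all probe sets. The call was lost whichever array was left out, with an adjusted p of 0.118 to 0.339, with the arrays labelled day 20 alone (0.39), without the intensity trend (0.316) and with replicate number, which coincides with sex, as a block (0.0536). Whether bulge and hair germ samples came from the same mice was not given in the sources used here, so comparisons across populations may not rest on independent samples. The test of whether the genotype difference itself differed between hair germ and bulge called 0% of all probe sets, and 1890 had an unadjusted p under 0.05. Tle4 1450853_at differed by -1.56 (SE 0.35, unadjusted p = 0.00122, adjusted p = 1) in that test, and 1425650_at and 1430384_at by -0.82 and -0.99.

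**Figure D3:**
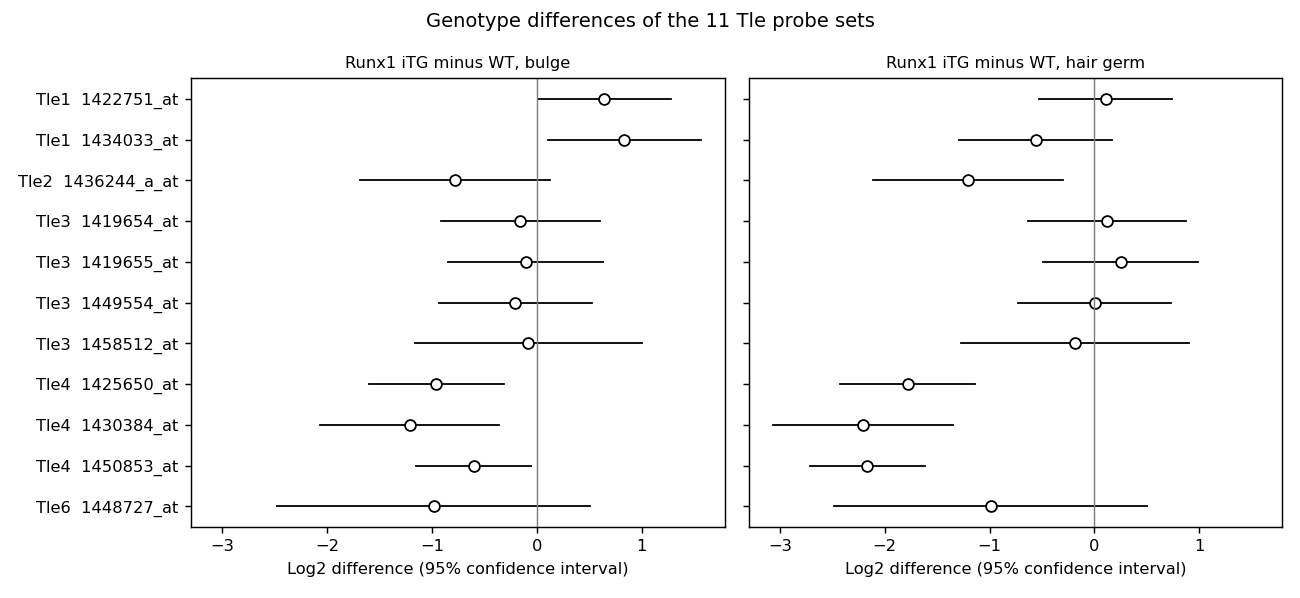
Log2 difference, Runx1 iTG minus WT, of each Tle probe set in bulge (left) and hair germ (right), with 95% confidence intervals from limma. Open symbols mark an adjusted p of at least 0.05, which holds for all 11 probe sets in both panels.

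Tle2 and Tle6, neighbours on chromosome 10, lay in the same direction as Tle4 without passing the test. Tle2, a full-length co-repressor, read 148 and 213 in Runx1 iTG hair germ, 505 and 331 in WT hair germ, 794 and 406 in Runx1 iTG bulge, and 1125 and 847 in WT bulge by 1436244_a_at. The Runx1 iTG arrays lay below the WT arrays in both populations. Of all probe sets, 33.6% in bulge and 35.1% in hair germ had genotypes apart in either direction. The difference was -1.21 in hair germ (SE 0.41, 2.31-fold lower, 95% confidence interval -2.11 to -0.30, unadjusted p = 0.0143, adjusted p = 0.662) and -0.78 in bulge (interval -1.69 to 0.13, adjusted p = 0.911). Averaged over the populations it was -0.99 (SE 0.29, unadjusted p = 0.00629, adjusted p = 0.44). Tle6, the divergent member, read 54.8 and 41.6 in Runx1 iTG hair germ, near background, 170 and 53 in WT hair germ, 121 and 72 in Runx1 iTG bulge, and 173 and 197 in WT bulge by 1448727_at. Its genotypes stood apart in bulge and overlapped in hair germ, where the WT arrays themselves differed widely. Tle6 differed by -0.98 in bulge (SE 0.67, interval -2.48 to 0.51, adjusted p = 0.936) and -0.99 in hair germ (SE 0.67, interval -2.49 to 0.51, adjusted p = 0.906). Leaving out 1 WT hair germ array moved the hair germ value, to -0.15 with replicate 1 dropped and to -1.83 with replicate 2 dropped. Over the 8 arrays Tle2 correlated with Tle4 at r = 0.907 and with Tle6 at 0.868, and Tle4 with Tle6 at 0.751, by brightest probe sets. These points share the population and genotype groups, so the values describe the arrays and carry no p.

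Tle1, another full-length member, was higher in Runx1 iTG bulge than in WT bulge by both probe sets, short of the threshold. By 1422751_at it read 531 and 578 in Runx1 iTG hair germ, 438 and 604 in WT hair germ, 891 and 1140 in Runx1 iTG bulge, and 692 and 603 in WT bulge. By 1434033_at it read 271 and 289 in Runx1 iTG hair germ, 395 and 431 in WT hair germ, 374 and 543 in Runx1 iTG bulge, and 256 and 250 in WT bulge. The genotypes did not overlap in bulge for either probe set, and in hair germ the first overlapped while the second was lower on both Runx1 iTG arrays. The share of all probe sets without overlap, in either direction, was 33.6% in bulge and 35.1% in hair germ. In bulge the differences were 0.64 (SE 0.28, 1.56-fold higher, adjusted p = 0.874) for 1422751_at and 0.83 (SE 0.33, 1.78-fold higher, adjusted p = 0.828) for 1434033_at, with unadjusted limma p-values of 0.0475 and 0.0293. In hair germ they were 0.11 (interval -0.52 to 0.74, adjusted p = 0.997) and -0.56 (interval -1.29 to 0.17, adjusted p = 0.887). The second probe set differed between populations in its genotype effect by -1.39 (SE 0.46, unadjusted p = 0.0132, adjusted p = 1). Both probe sets of Tle1 agreed only loosely over the arrays (r = 0.477), so the order of the 3 lower groups depends on which is read.

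Tle3, the full-length member with the most probe sets, was not called between genotypes by any of its 4 probe sets. Its brightest, 1419654_at, read 2548 and 2977 in Runx1 iTG hair germ, 2688 and 2397 in WT hair germ, 1974 and 1054 in Runx1 iTG bulge, and 2076 and 1246 in WT bulge. Genotypes overlapped in both populations, while every hair germ array exceeded every bulge array. The genotype difference was -0.16 in bulge (interval -0.91 to 0.60, adjusted p = 0.986) and 0.12 in hair germ (interval -0.64 to 0.87, adjusted p = 0.997). Signals of 1419655_at were 1887 and 1921 in Runx1 iTG hair germ, 1684 and 1522 in WT hair germ, 1493 and 714 in Runx1 iTG bulge, and 1255 and 986 in WT bulge. Those of 1449554_at were 1062 and 847 in Runx1 iTG hair germ, 963 and 931 in WT hair germ, 654 and 345 in Runx1 iTG bulge, and 551 and 543 in WT bulge. These 3 probe sets followed each other at r of 0.891 to 0.965. The last, 1458512_at, read 386 and 170 in Runx1 iTG hair germ, 321 and 264 in WT hair germ, 324 and 169 in Runx1 iTG bulge, and 231 and 267 in WT bulge, and correlated with the others at 0.316 to 0.582. In bulge, replicate 2 of Runx1 iTG was the lowest array for all 4 Tle3 probe sets. Without it the bulge difference of 1419654_at was 0.30, and without WT bulge replicate 1 it was 0.21, the opposite sign.

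**Figure D4:**
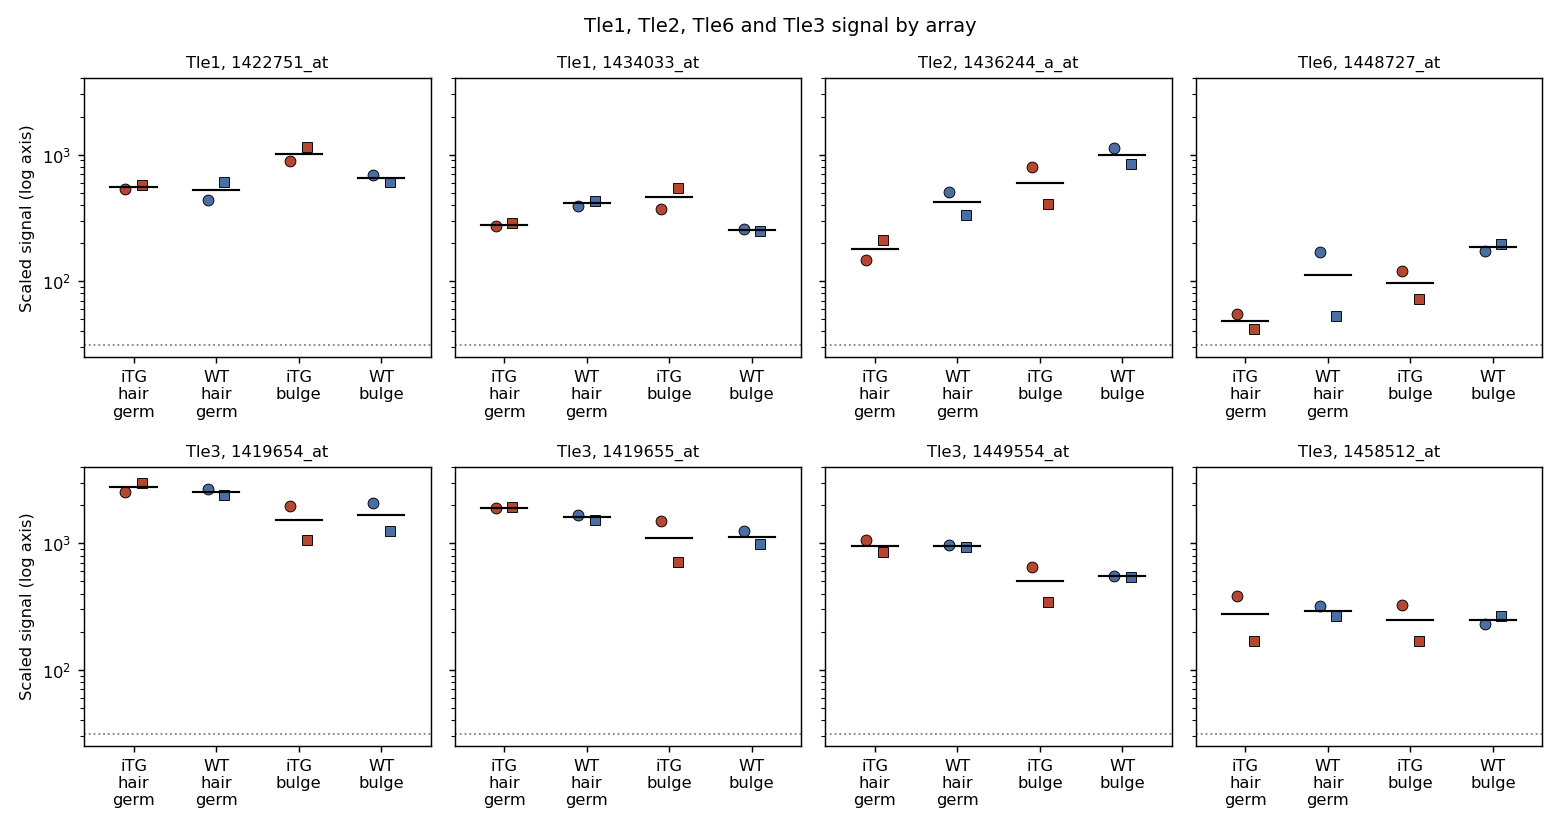
Scaled signal (log axis) of the 8 probe sets of Tle1, Tle2, Tle6 and Tle3 on each array, with circles for replicate 1, squares for replicate 2, bars for group means and a dotted line for background at 31.0. Tle2 and Tle6 are lowest in Runx1 iTG hair germ, and 3 of the 4 Tle3 probe sets are highest there.

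The genotype groups did not overlap for 7 of the 11 probe sets in bulge, where 33.6% of all probe sets did not, and for 6 of 11 in hair germ, against 35.1% of all. In bulge 2 of the 7 were higher in Runx1 iTG and 5 lower, and in hair germ 1 was higher, Tle3 1419655_at, and 5 lower. The median log2 difference of the 11 was -0.20 in bulge (-0.02 over all probe sets) and -0.56 in hair germ (0.00 over all). The 3 Tle4 probe sets measure 1 gene, so they are not independent entries in these counts.

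Between populations the members split. Tle4 and Tle2 fell in hair germ and 1 Tle3 probe set rose, when hair germ was set against bulge over both genotypes. Tle4 was 3.34-fold lower by 1425650_at (log2 -1.74, SE 0.20, adjusted p = 0.000508), 2.74-fold by 1430384_at (-1.45, SE 0.27, adjusted p = 0.00624) and 2.61-fold by 1450853_at (-1.38, SE 0.17, adjusted p = 0.000729). Tle2 was 2.77-fold lower (-1.47, SE 0.29, adjusted p = 0.00793). Tle3 rose 1.86-fold by 1449554_at (0.90, SE 0.23, adjusted p = 0.03), while 1419654_at (0.80, adjusted p = 0.0537), 1419655_at (0.70, adjusted p = 0.0781) and 1458512_at (0.18, adjusted p = 0.793) did not pass. Tle1 gave -0.60 (adjusted p = 0.0803) and 0.01 (adjusted p = 0.986), and Tle6 gave -0.96 (adjusted p = 0.229). The limma test thus called 5 of 11 Tle probe sets, 4 lower and 1 higher, where it called 14.0% of all probe sets. In this count and the population counts that follow, probe sets of 1 gene are not independent entries. The Tle3 call held in 5 of 15 alternatives and the Tle2 call in 15 of 16.

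Within Runx1 iTG mice, hair germ was lower than bulge for Tle4 by 4.49-fold (1450853_at, log2 -2.17, SE 0.25, limma adjusted p = 0.00115), 4.44-fold (1425650_at, -2.15, SE 0.29, adjusted p = 0.00254) and 3.87-fold (1430384_at, -1.95, SE 0.38, adjusted p = 0.0152), and for Tle2 by 3.21-fold (-1.68, SE 0.41, adjusted p = 0.0369). These 4 of 11 were called, all lower, against 6.98% of all probe sets. The Tle2 call held in 6 of 17 alternatives (log2 -2.43 to -1.20, adjusted p up to 0.242) and that of Tle4 1430384_at in 9 of 16. The Tle3 differences were 0.93, 0.88, 1.00 and 0.13 and did not pass (adjusted p of 0.111 to 0.931). Those of Tle1 were -0.86 and -0.69 (adjusted p of 0.111 and 0.28), and that of Tle6 was -0.97 (adjusted p = 0.486). Populations did not overlap for 10 of the 11 probe sets, where 49.3% of all probe sets did not.

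Within WT mice, the limma test called 1 of 11, Tle4 1425650_at, which was 2.51-fold lower in hair germ (log2 -1.33, SE 0.29, adjusted p = 0.0314), where 4.61% of all probe sets were called. Without 1 of the WT or Runx1 iTG bulge arrays, or without 1 of the WT hair germ arrays, its adjusted p was 0.0504 to 0.205. The other Tle4 probe sets differed by -0.96 (1430384_at, adjusted p = 0.216) and -0.60 (1450853_at, adjusted p = 0.226), and Tle2 by -1.26 (SE 0.41, adjusted p = 0.125). Tle3 1419654_at differed by 0.66 (SE 0.34, adjusted p = 0.348) and Tle6 by -0.96 (SE 0.67, adjusted p = 0.511), a value of -1.80 with WT hair germ replicate 1 dropped and -0.12 with replicate 2 dropped. The Tle1 probe sets lay in opposite directions, 1422751_at at -0.33 (SE 0.28, adjusted p = 0.61) with overlapping groups, and 1434033_at at 0.71 (SE 0.33, adjusted p = 0.29) with both hair germ arrays above both bulge arrays. Populations did not overlap for 9 of 11 probe sets, against 49.2% of all. Both population comparisons share arrays with the genotype comparisons, and marker lists moved with them. Beside the sebaceous and bulge markers described above, fibroblast markers summed to 436 to 811 in hair germ and 9157 to 9290 in bulge of Runx1 iTG mice, and to 308 to 451 and 4835 to 5747 in WT mice. Col1a1 and Col1a2 held most of the bulge sums, Col1a1 averaging 7039 in Runx1 iTG bulge and 3917 in WT bulge. Of the 7 fibroblast markers, 6 lay lower in Runx1 iTG hair germ and 5 in WT. Past the threshold were 3 and 2, against 6.98% and 4.61% of all probe sets. Pdgfra averaged 74.9 in hair germ and 28.1 in bulge of Runx1 iTG mice, and 46.5 and 23.8 in WT. Lum had means below background in every group. Melanocyte markers summed to 427 to 1082 in hair germ and 2083 to 4485 in bulge of Runx1 iTG mice, and to 864 to 1006 and 2193 to 3599 in WT mice. Mitf held most of these sums. It averaged 619 in hair germ and 3073 in bulge of Runx1 iTG mice, and 750 and 2518 in WT. Tyr and Mlana had means below background in every group. Tyrp1 exceeded it in WT bulge alone, and Kit in Runx1 iTG hair germ alone, at 33.3. Of the 7 melanocyte markers, 5 lay lower in Runx1 iTG hair germ and 6 in WT. Only Mitf in Runx1 iTG passed the threshold. Of 7 differentiated epidermis markers 7 fell past the threshold in hair germ over both genotypes, where 14.0% of all probe sets were called. Their sums were 26703 to 36890 in hair germ and 63138 to 89743 in bulge of Runx1 iTG mice, and 43329 to 46908 and 83654 to 91142 in WT mice. Basal keratinocyte markers summed to 56456 to 72327 in hair germ and 100874 to 114205 in bulge of Runx1 iTG mice. In WT mice they summed to 78526 to 85784 in hair germ and 115864 to 124033 in bulge. The part of these markers was not tested.

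**Figure D5:**
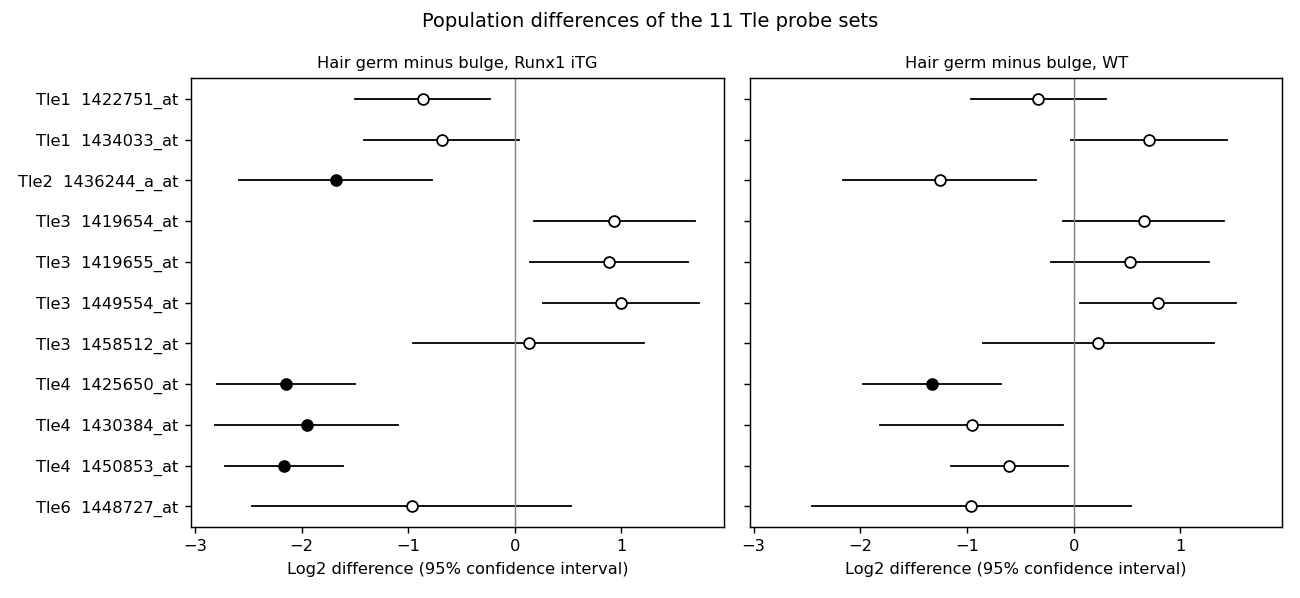
Log2 difference, hair germ minus bulge, of each Tle probe set in Runx1 iTG (left) and WT (right) mice, with 95% confidence intervals from limma. Filled symbols mark an adjusted p under 0.05: 4 in Runx1 iTG, all Tle4 and Tle2, and 1 in WT, Tle4 1425650_at.

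The proteins that recruit, bind or modify TLE were read from 6 lists of 47 symbols, of which 40 were measured, each gene by its brightest probe set. The short family member stands under both its old symbol and its current one, Tle5. Of the 40, only Runx1 passed in a comparison of Runx1 iTG with WT, at 4.40 in bulge (SE 0.25, adjusted p = 0.000435) and 4.67 in hair germ (SE 0.25, adjusted p = 0.000251). Cbfb, the partner subunit of all RUNX proteins, averaged 3175 in Runx1 iTG hair germ and 2652 in WT hair germ, and 3398 in Runx1 iTG bulge and 3479 in WT bulge, with no call (adjusted p of 0.947 and 1). Counts of partners between populations stand against 6.98% of all probe sets called in Runx1 iTG, 4.61% in WT and 14.0% over both genotypes. Among TCF and LEF factors, 3 of 3 measured lay lower in hair germ than in bulge of each genotype. Of these 2 passed in Runx1 iTG, 3 in WT and 3 over both genotypes. Tcf7l2, a WNT effector, fell in hair germ, with log2 differences of -2.49 in Runx1 iTG (adjusted p = 0.000394) and -1.28 in WT (adjusted p = 0.0124). It averaged 908 in Runx1 iTG hair germ and 1778 in WT hair germ (-0.97, unadjusted p = 0.00162, adjusted p = 0.404). Tcf7l1, a repressor of WNT targets in bulge cells, differed by -3.45 in Runx1 iTG (adjusted p = 0.00594) and -2.93 in WT (adjusted p = 0.0173).

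Of 8 HES and HEY repressors, several of them Notch targets, 5 lay lower in Runx1 iTG hair germ and 6 in WT hair germ. In each genotype 1 passed, Hey1 in Runx1 iTG (-3.59, limma adjusted p = 0.0209) and Hes6 in WT (-1.55, adjusted p = 0.022). Of all probe sets 6.98% were called in Runx1 iTG and 4.61% in WT, so a single call is no result about the list. Hey1 and Hes6 both passed as lower over both genotypes, 2 of 8, where 14.0% of all probe sets were called. Between genotypes Hes1 averaged 339 in Runx1 iTG bulge and 948 in WT bulge (-1.75, adjusted p = 0.794), and Hes6 averaged 468 in Runx1 iTG hair germ and 158 in WT hair germ (1.57, unadjusted p = 0.00051, adjusted p = 0.298). Of 14 measured homeodomain, paired-box, forkhead and zinc finger partners, 11 lay lower in Runx1 iTG hair germ and 10 in WT hair germ. In each genotype 1 passed, the homeodomain repressor Msx2, against the same shares of all probe sets. A single call is no result about this list either. Msx2 averaged 176 in hair germ and 1331 in bulge of Runx1 iTG mice (limma adjusted p = 0.00569), and 77.1 in hair germ and 1036 in bulge of WT mice (adjusted p = 0.00197). Over both genotypes 4 of 14 passed as lower, Msx1, Msx2, Gsc and Prdm1, where 14.0% of all probe sets were called. Gsc exceeded background by its mean in WT bulge alone. Tle5, which lacks the peptide-binding domain and can oppose the longer proteins, averaged 2256 in Runx1 iTG bulge and 3337 in WT bulge (-0.57, unadjusted p = 0.037, adjusted p = 0.847). In hair germ it averaged 3638 in Runx1 iTG and 3829 in WT. The histone deacetylases Hdac1, Hdac2 and Hdac3 were not called between genotypes or within either genotype. Over both genotypes Hdac3 rose in hair germ (1.02, limma adjusted p = 0.0197), 1 of the 4 measured in its list, which includes Tle5. In that comparison 14.0% of all probe sets were called, so this single call is no result about the list.

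Of 8 kinases and ubiquitin enzymes that act on TLE proteins, 3 lay higher in hair germ than in bulge of Runx1 iTG mice and 4 in WT mice. In each genotype 1 passed, where 6.98% of all probe sets were called in Runx1 iTG and 4.61% in WT, and 1 call is again no result about the list. This was Hipk2, a kinase that phosphorylates Groucho proteins, which averaged 3170.4 in hair germ and 820.2 in bulge of Runx1 iTG mice (adjusted p = 0.00121), and 2587 in hair germ and 909 in bulge of WT mice (adjusted p = 0.00551). Between genotypes it differed by 0.30 in hair germ (adjusted p = 0.923). Over both genotypes 2 of the 8 passed as higher in hair germ, Hipk2 and Cdk1 (1.85, limma adjusted p = 0.0105), where 14.0% of all probe sets were called.

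Other genes were ranked by how closely their log2 signal followed each member's brightest probe set over the 8 arrays, among 14259 genes above background in at least 1 group. The nearest to Tle4 were Gse1 (r = 0.986), Dpy19l3 (0.980) and Lrrc39 (0.980). Dpy19l3 averaged 99.0 in Runx1 iTG hair germ, 367 in WT hair germ, 418 in Runx1 iTG bulge and 658 in WT bulge. Nearest to Tle2 were Slc26a3 (0.973), Sh3bp1 (0.973) and Calm4 (0.973), and nearest to Tle6 were Plbd2 (0.971), Magi1 (0.965) and Msantd1 (0.961). Slc26a3 exceeded background by its mean in WT bulge alone, at 35.1. It averaged 1.86 in Runx1 iTG hair germ, 11.7 in WT hair germ and 14.8 in Runx1 iTG bulge. For Tle3 they were Blm (0.988), Prps1l3 (0.980) and Ran (0.980), and for Tle1 Os9 (0.985), Osbpl7 (0.968) and Trappc3 (0.948). The arrays share their groups, and with so many genes searched against 8 arrays high values arise readily, so the ranks are a description only.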

How the data were processed

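The deposited values are intensities on a linear scale, already summarised into 45101 probe sets and scaled by the authors. From the values, each array's mean without its top and bottom 2% was 500. The summarising program was not given in the sources used here. Per the labels' protocols, cDNA was amplified from total RNA of sorted cells and biotin-labelled. After 64 control probe sets were removed, every array was scaled to one 75th percentile (575), a floor was set at the lowest of the arrays' 5th percentiles (2.41, which replaced 3.48% of values), and values were log2-transformed. Group means were fitted to all 8 arrays over 45037 probe sets with limma 3.58.1 in R 4.3.3 (eBayes with intensity trend, 4 residual degrees of freedom), and 7 contrasts were adjusted by Benjamini-Hochberg at 0.05. A difference between 2 groups had a median standard error of 0.60 (log2), and the number of arrays limits precision. The fit was tested on simulated data. Names came from the platform annotation, in which 34945 probe sets had 1 symbol, 932 several and 9160 none, and 34741 matched a current gene. Singled out with full statistics, per contrast, were Tle probe sets past the threshold, otherwise those with unadjusted p under 0.05, and each gene's brightest probe set in the genotype contrasts and the WT population contrast. For each member the 3 most correlated genes were named. Labels call the samples biological replicates, 2 per group. The p-values rest on a spread pooled over all 4 groups and moderated by the intensity trend. They do not measure the spread of the 2 arrays of a single group. The members, partner and marker lists, tests and 10 alternatives were chosen with earlier results of these data known.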

Additional observations from a re-analysis of the deposited data

How the results depend on the processing

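Alternatives changed how many of the 11 Tle probe sets were called, and turned the sign of 3 differences, none of them past the threshold. For Runx1 iTG against WT in hair germ the count was 1 in place of 0 with an offset of 50 instead of the floor, without dim probe sets, and with the brightest probe set per gene. Tle4 1450853_at was the probe set concerned, its adjusted p ranging from 0.0197 to 0.741 over 17 alternatives. The genotype count averaged over populations was 3 in place of 1 without dim probe sets, 0 without the intensity trend, with day 20 arrays only, and with any one array left out (0 to 0). For hair germ against bulge in WT it was 0 in place of 1 without the trend, with only the groups compared, with day 20 arrays only and with the brightest probe set per gene, and 0 to 1 with one array left out. In Runx1 iTG it was 2 in place of 4 without the trend, with only the groups compared, and with the brightest or the mean of a gene's probe sets, 0 with day 20 arrays, and 2 to 4 with one array left out. Over both genotypes 5 became 3 without the trend, with day 20 arrays or with the brightest probe set, and 2 with the mean of probe sets, and the count was 4 to 7 with one array left out. Gene-level alternatives hold 5 entries in place of 11, and the day 20 alternative leaves 1 array in each Runx1 iTG group, assumed to vary like the WT groups. The cause of the other changes was not tested. The bulge genotype difference of Tle3 1419654_at turned to 0.30 without Runx1 iTG bulge replicate 2, also the day 20 setting, and to 0.21 without WT bulge replicate 1, and ranged from -0.61 to 0.30 with one array left out. That of Tle1 1422751_at in hair germ turned to -0.12 without WT hair germ replicate 1 (range -0.12 to 0.34 with one array left out) and to -0.23 with the mean of probe sets, and its WT population difference to 0.19 with that mean. Over 33 named results, 479 of 541 recomputed values kept direction and side of the threshold, 52 lost the call and 4 gained it. Quantile normalization moved the median of all probe sets by up to 0.16 on the log2 scale (hair germ minus bulge over both genotypes, 0.02 in place of -0.14) and turned no direction among the named results. With replicate number as a replicate block, the averaged genotype count was 0 in place of 1 (Tle4 adjusted p = 0.0536), and Tle4 in hair germ had an adjusted p of 0.066. Same-numbered samples did not deviate together over all probe sets (r of -0.03 to 0.07), although sex-linked transcripts put them in the same sex. Tle6, near background in Runx1 iTG hair germ, had the widest interval among the members.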
